A study of Homo sapiens with 4 samples.

Results

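The mRNA of 10 cyclin genes was followed in a renal carcinoma line with and without VHL: CCND1, CCND2, CCND3, CCNE1, CCNE2, CCNA2, CCNB1, CCNB2, CCNF and CCNG2. They were chosen by gene symbol, and all 10 were present among the 12912 genes of the deposited count table, each under 1 identifier. The line 786-O, from a human clear cell kidney tumor, lacks functional VHL, the substrate receptor of a ubiquitin ligase, and its control subline 786-O-Ctrl is given by the labels as wild type and VHL-null. In 786-O-VHL the gene was restored, for which the study used a retroviral vector with HA-tagged VHL. Both are the triple-reporter form of the line (786-OTR in the labels), with GFP, luciferase and thymidine kinase from a further retroviral vector. Both sublines were grown in RPMI1640 with 10% serum, and each group holds 2 RNA-seq libraries. Nothing in the labels says that these came from separate cultures, so p-values measure the spread between libraries alone, which may be technical. They are called control and VHL-restored libraries here.

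Cyclins are the regulatory subunits of cyclin-dependent kinases (CDKs), and most of them are named for the stretch of the cell cycle in which they accumulate. D-type cyclins bind CDK4 and CDK6 in G1 and start the phosphorylation of the retinoblastoma protein, E-type cyclins bind CDK2 at the entry into S phase, cyclin A2 acts in S and G2, and B-type cyclins bind CDK1 to drive mitosis. Cyclin F and cyclin G2 stand apart, since neither is known to activate a kinase in this way: cyclin F is the substrate receptor of an SCF ubiquitin ligase, and cyclin G2 is found in cells that leave the cycle. CCND1 is a known target of HIF2, the hypoxia-inducible factor that VHL marks for degradation in this line.

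The promoters of CCNA2, CCNB1, CCNB2 and CCNF, which fell in the counts, are shown first, together with that of CCNG2, which rose. CCND3 and CCNE1 also fell, and their windows were searched but are not shown. The windows shown were chosen with the counts known. Different letters are marked in CCNG2 and in the others, and a relation of letters to direction was not tested. Of the 10 genes, 7 have a window in the RefSeq promoter table of GRCh38.p14, CCND3 with 3 windows, and CCND1, CCND2 and CCNE2 have none there. The windows below hold the 250 bases before the annotated start, at chr4:121823884-121824133 on the minus strand for CCNA2, and on the plus strand at chr5:69166900-69167149 for CCNB1, chr15:59104896-59105145 for CCNB2, chr16:2429197-2429446 for CCNF and chr4:77156957-77157206 for CCNG2. In the first 4, capitals mark the CCAAT box (CCAAT, or ATTGG for its other strand) and the cell cycle genes homology region or CHR (TTTGAA, or TTCGAA, or CTTGAA, or TTTAAA), elements known from genes of G2 and mitosis. In CCNG2, capitals mark ACGTG, a core of the hypoxia response element, whose matches on the 2 strands overlap and form CACGTG between them. CCNB1 holds the same overlapping pair, from 196 bases before its start, left in lower case below.
CCNA2: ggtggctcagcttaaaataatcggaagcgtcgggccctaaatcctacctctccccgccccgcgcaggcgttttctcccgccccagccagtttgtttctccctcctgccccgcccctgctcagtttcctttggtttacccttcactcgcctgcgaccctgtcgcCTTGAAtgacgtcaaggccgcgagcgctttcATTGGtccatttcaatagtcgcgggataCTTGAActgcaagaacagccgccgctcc
CCNB1: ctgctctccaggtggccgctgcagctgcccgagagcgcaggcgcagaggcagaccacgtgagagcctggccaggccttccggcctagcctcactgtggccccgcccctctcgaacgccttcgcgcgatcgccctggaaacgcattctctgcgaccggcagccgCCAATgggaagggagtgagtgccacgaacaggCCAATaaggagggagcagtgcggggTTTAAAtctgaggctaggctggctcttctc
CCNB2: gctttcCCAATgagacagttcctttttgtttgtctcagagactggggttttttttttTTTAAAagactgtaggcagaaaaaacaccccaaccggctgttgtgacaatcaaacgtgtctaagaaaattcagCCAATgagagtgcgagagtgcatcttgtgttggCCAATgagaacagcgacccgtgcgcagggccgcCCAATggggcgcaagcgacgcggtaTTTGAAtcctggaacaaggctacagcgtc
CCNF: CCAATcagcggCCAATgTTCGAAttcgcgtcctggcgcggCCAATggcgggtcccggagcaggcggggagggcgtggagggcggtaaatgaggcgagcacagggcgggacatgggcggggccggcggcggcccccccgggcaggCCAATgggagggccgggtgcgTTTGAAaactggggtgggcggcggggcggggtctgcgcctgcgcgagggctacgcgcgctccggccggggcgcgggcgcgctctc
CCNG2: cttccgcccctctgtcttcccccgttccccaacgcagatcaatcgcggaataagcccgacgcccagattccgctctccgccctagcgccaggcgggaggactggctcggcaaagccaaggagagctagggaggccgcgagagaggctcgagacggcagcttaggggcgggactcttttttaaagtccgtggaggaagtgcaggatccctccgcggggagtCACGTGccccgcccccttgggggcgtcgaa
Both strands were searched. CCNA2, CCNB1, CCNB2 and CCNF each held at least 1 CCAAT box and at least 1 CHR, a combination present in 10.2% of the 35116 windows of the table. CCNB2 and CCNF held 4 CCAAT boxes each, CCNB1 held 2 and CCNA2 held 1, and 2.93% of all windows held 3 or more. The CHR nearest the start lay 28 bases before it in CCNA2, 30 in CCNB1 and 29 in CCNB2, and 85 bases before it in CCNF. CCNE1 held TTTAAA and no CCAAT box, as did CCNG2, and no window of CCND3 held a CHR. The hypoxia response element cores ACGTG or GCGTG, which 43.2% of all windows hold, were present in CCNB1, CCNB2, CCNF, CCNG2 and 1 window of CCND3, and absent from the windows of CCNE1 and CCNA2. The E2F letters TTTGGCGC or TTTCCCGC or TTTGCCGC or TTTCGCGC, present in 2.79% of windows, were in none of the windows of the 7 genes. The FOXO letters GTAAACA, present in 2.98%, were in none of them either. Only these exact letters in these 250 bases were searched, so sites of other letters or in other places are not covered.

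Depth was uneven: the control libraries, named here the deeper and the shallower, held 22141263 and 15714166 counts, VHL-restored replicate 2 held 16114120 and replicate 1 only 2807779. Levels are given as edgeR's CPM, a gene's counts relative to the total of its library after scaling with TMM factors, and 3 counts, the limit that a count of 0 allows, correspond to between 0.142 and 1.02 CPM. These limits cover counting error only. VHL mRNA was at 42.9 and 43.9 CPM in control cells and at 178 and 163 CPM in VHL-restored cells, and a count does not tell vector transcripts from endogenous ones. All 7 markers of renal carcinoma lines were detected, and 4 of them were lower in VHL-restored cells, against 31.9% of all genes tested. VIM and PAX8 fell most, with log2 fold changes of -1.21 and -0.90. The summed level of the 3 fibroblast markers with a row was 10.4 and 11.4 CPM in control libraries and 15.3 and 14.6 CPM in VHL-restored ones, with PDGFRB higher (log2 fold change 0.70, edgeR FDR = 0.0147). The 3 endothelial markers with a row summed to between 0.678 and 1.33 CPM, leukocyte markers were not analysed here, and the part of any of these in the cyclin values was not tested.

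Of the 10 cyclins, 8 were lower in VHL-restored cells and 2 were higher at an edgeR FDR under 0.05 (quasi-likelihood test, Benjamini-Hochberg adjustment over 12335 genes tested). Across all genes tested, 31.9% were lower and 32.6% were higher by the same rule, 64.5% in either direction. With DESeq2, 7 cyclins were lower and 2 were higher, against 24.4% and 21.8% of all genes (46.2% in either direction). The 8 that fell were CCND1, CCND3, CCNE1, CCNE2, CCNA2, CCNB1, CCNB2 and CCNF, and the 2 that rose were CCNG2 and CCND2. All 10 passed the filter on low counts. CCND2 had no count in control cells and entered the test only through its VHL-restored libraries, so its call carries no weight in this count. Leaving it aside, the median log2 fold change of the 9 others was -1.11, against 0.02 over all genes tested. In bulk RNA, fewer cells in a phase of the cycle and less cyclin mRNA per cell cannot be told apart. With 2 libraries against 2, the smallest p of a two-sided exact permutation test is 0.333. The edgeR values can go lower because that test takes its p from an assumed distribution, and it also borrows its spread across genes.

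**Figure D1:**
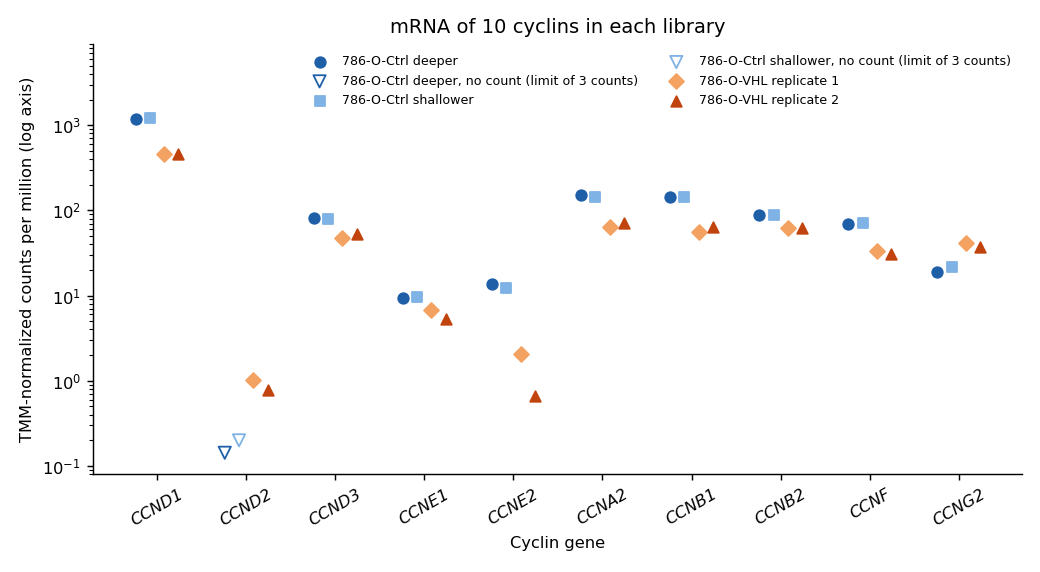
TMM-normalized CPM of each cyclin (log axis) in the 4 libraries, 2 of 786-O-Ctrl (blue) and 2 of 786-O-VHL (orange), with open triangles at the limit of 3 counts where no count was found. Both orange points lie below both blue points for 8 genes, and above them for CCND2 and CCNG2.

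The groups did not overlap for any of the 10 genes, and both VHL-restored libraries lay below both control libraries for the 8 that fell. For CCND2, with 0 counts in each control library, any count in both VHL-restored libraries gives this, so it carries no weight. Among all genes tested, 39.2% had VHL-restored libraries that lay entirely below those of control cells, and 40.8% entirely above, 80% in all. At a stricter edgeR threshold, a fold change over 4 with an FDR under 0.01, CCNE2 was lower. Of all genes tested, 1.54% were lower, 2.92% were higher and 4.46% were either at this threshold. CCND2 passed it as well, but its fitted fold change is set by the prior count and its call carries no weight here either.

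CCND1 encodes cyclin D1, the D-type cyclin most often raised in tumors. In GRCh37, the build of all gene positions given here, it spans 69455924 to 69469242 of chromosome 11 on the plus strand. Its level was 1186 and 1213 CPM in the control libraries and 462 and 465 CPM in the VHL-restored libraries. The replicates of a group thus lay close together, and the groups were far apart. The log2 fold change was -1.37 (standard error 0.0607, edgeR FDR = 2.55e-17), or 2.59 times lower in VHL-restored cells, and 4.01% of all genes tested had a change as low or lower. When single libraries were left out, it stayed between -1.39 and -1.36. An exon of LTO1 on the opposite strand overlaps CCND1, and reads of both could not be told apart without strand.

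CCND3 encodes cyclin D3, which binds the same kinases. It lies on the minus strand of chromosome 6 from 41902672 to 42018095. Its level was 81.4 and 78.4 CPM in control cells and 46.8 and 52.8 CPM in VHL-restored cells. CCND3 fell by 0.64 on the log2 scale (standard error 0.0767, edgeR FDR = 3.19e-08), less than CCND1.

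CCND2, on chromosome 12 from 4378937 to 4414519, encodes cyclin D2. No read of it was counted in either control library (0 counts), whereas VHL-restored replicate 1 had 3 counts and replicate 2 had 13. These counts correspond to 1.02 and 0.772 CPM, with exact 95% Poisson intervals of 0.21 to 2.97 CPM and 0.411 to 1.32 CPM that cover counting error only. Over both VHL-restored libraries the rate was 0.809 CPM, with an exact 95% Poisson interval of 0.462 to 1.31 CPM. With the control group set at its limit of 3 counts over both libraries, 0.0831 CPM, this rate was at least 9.73-fold higher, where the interval of the rate itself is not included. The level was low in both groups. In CPM, the VHL-restored libraries of CCND2 overlapped with those of CCNE2. Without either of the VHL-restored libraries, CCND2 no longer passed the filter on low counts. A gene on the same strand and 2 on the opposite strand share exon sequence with CCND2.

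The D-type cyclins were compared per length, as TPM, in which counts are divided by the length of the union of annotated exons and then scaled to the same sum in every library. CCND1 made up 94.6% and 94.9% of the D-type cyclin mRNA in the control libraries and 92.2% and 91.3% in the VHL-restored libraries. CCND3 supplied nearly all of the rest, with 5.37% and 5.07% in control cells and 7.72% and 8.57% in VHL-restored cells. CCND1 was therefore the main D-type cyclin transcript of both sublines. The ratio of CCND1 to CCND3 was 17.6 and 18.7 in control cells and 11.9 and 10.7 in VHL-restored cells. These ratios did not overlap between the groups, at a two-sided exact permutation p of 0.333, the smallest this design allows.

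**Figure D2:**
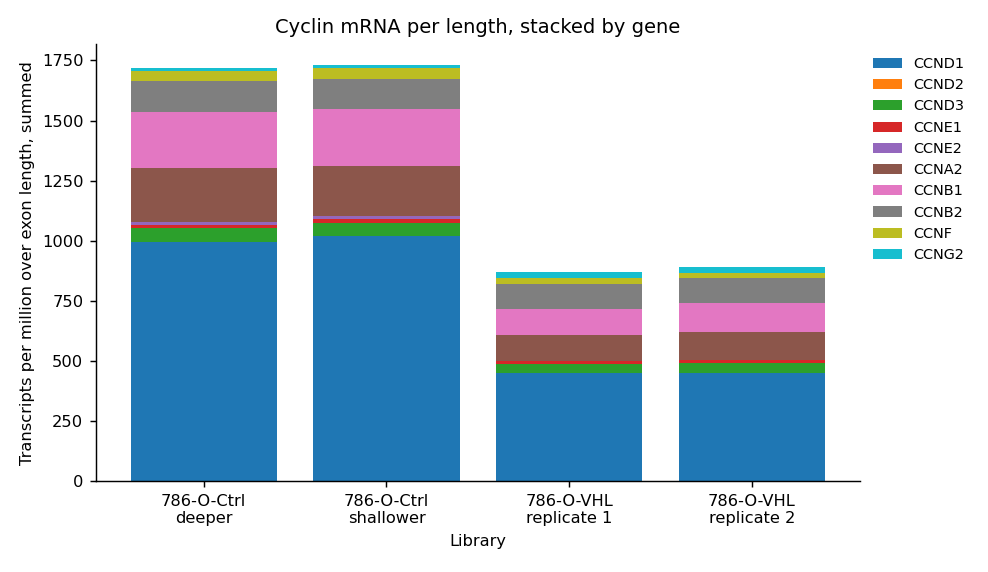
Stacked levels of the 10 cyclins in TPM (transcript level per exon length), with 1 bar per library and 1 color per gene. The bars of 786-O-Ctrl reach 1718 and 1732 and those of 786-O-VHL 871 and 890, and CCND1 fills more than any other gene in each bar.

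The E-type cyclins, which activate CDK2, differed most from each other among the 3 pairs compared within a class. CCNE2, on the minus strand of chromosome 8 from 95891998 to 95908906, was at 13.7 and 12.2 CPM in control cells and at 2.04 and 0.653 CPM in VHL-restored cells. The VHL-restored values rest on 6 and 11 counts, with exact 95% Poisson intervals of 0.747 to 4.43 CPM and 0.326 to 1.17 CPM. CCNE2 fell by 3.89 on the log2 scale (standard error 0.303, edgeR FDR = 5.88e-12), and 0.324% of all genes tested had a change as low or lower. The fall was smaller, -2.68 on the log2 scale, once VHL-restored replicate 2 was left out (edgeR FDR = 1.18e-05). Exons of INTS8 and of 1 other gene on the opposite strand overlap CCNE2.

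CCNE1, on chromosome 19 from 30302898 to 30315219, was at 9.36 and 9.57 CPM in control cells and at 6.78 and 5.29 CPM in VHL-restored cells. Its log2 fold change was -0.76 (standard error 0.201, edgeR FDR = 0.00169). Of the 8 cyclins that fell, it was the one that lost its call in some alternatives. Without VHL-restored replicate 2 it was -0.48 (edgeR FDR = 0.237), with the libraries thinned to equal depth -0.51 (edgeR FDR = 0.251), and with DESeq2 -0.73 (adjusted p = 0.053).

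Per length, both E-type cyclins were close in control cells, where CCNE1 was 1.22 and 1.41 times as abundant as CCNE2. In VHL-restored replicates 1 and 2 this ratio was 5.96 and 14.5, which did not overlap with control cells (two-sided exact permutation p = 0.333, the smallest possible). CCNE2 thus went from between 41.6% and 45.1% of E-type cyclin mRNA in control cells to between 6.47% and 14.4% in VHL-restored cells. The difference between the fitted log2 fold changes of CCNE1 and CCNE2 was 3.13, with a standard error of 0.364 if both are taken as independent.

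**Figure D3:**
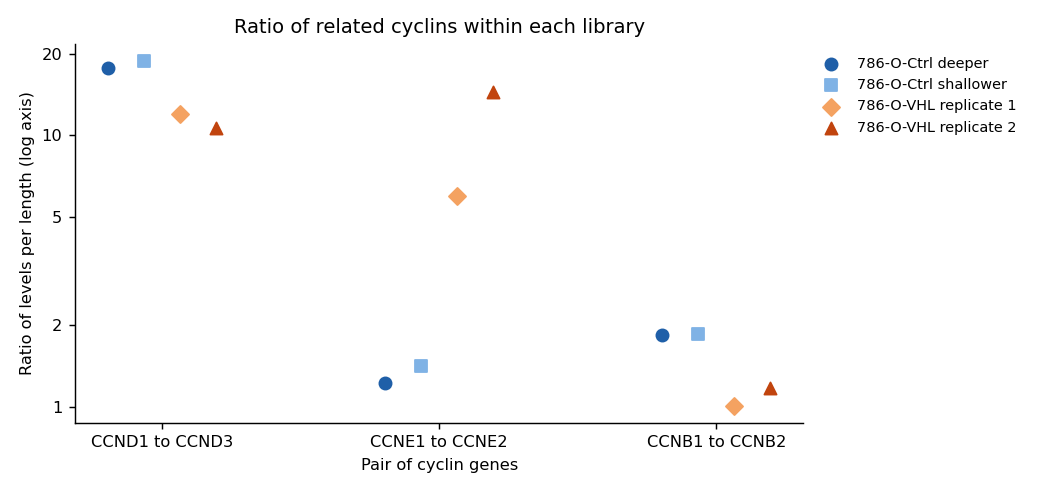
Ratio of the levels per length of related cyclins within each library (log axis), with 1 point per library. CCND1 to CCND3 and CCNB1 to CCNB2 lie lower in both 786-O-VHL libraries, and CCNE1 to CCNE2 lies higher, at 5.96 and 14.5 against 1.22 and 1.41.

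CCNA2 encodes cyclin A2, which pairs with CDK2 and then with CDK1. The gene lies on the minus strand of chromosome 4 from 122737599 to 122745038, with its promoter letters shown above. Its level was 153 and 144 CPM in control cells and 63.8 and 70.3 CPM in VHL-restored cells. CCNA2 fell by 1.11 on the log2 scale (standard error 0.0719, edgeR FDR = 1.05e-13), and was 2.16 times lower in VHL-restored cells. An exon of EXOSC9 on the opposite strand overlaps it.

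Of the B-type cyclins, which form the mitotic kinase with CDK1, CCNB1 lies on chromosome 5 from 68462962 to 68474072. It was at 142.8 and 143.1 CPM in control cells and at 56 and 63.3 CPM in VHL-restored cells. CCNB1 fell by 1.22 on the log2 scale (standard error 0.0723, edgeR FDR = 1.71e-14). CCNB2, on chromosome 15 from 59397325 to 59417244, was at 88.2 and 87.3 CPM in control cells and at 62.8 and 61.3 CPM in VHL-restored cells. It was 1.42 times lower, a smaller fall than that of CCNB1, and its log2 fold change was -0.51 (standard error 0.0721, edgeR FDR = 5.66e-07). Per length, CCNB1 was 1.83 and 1.85 times as abundant as CCNB2 in control cells and 1.01 and 1.17 times in VHL-restored cells. The ratios did not overlap between groups (two-sided exact permutation p = 0.333, the smallest possible), and both B-type cyclins were near equal in VHL-restored cells.

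CCNF encodes cyclin F, which holds substrates such as RRM2 and CDC6 to the SCF ligase for degradation. The gene lies on chromosome 16 from 2479395 to 2508855, and exons of 2 genes on the opposite strand overlap it. Its level was 69.1 and 71.5 CPM in control cells and 33.6 and 31 CPM in VHL-restored cells. CCNF fell by 1.15 on the log2 scale (standard error 0.0852, edgeR FDR = 1.85e-12), a change close to those of CCNA2 and CCNB1. Of 5 tested genes for its substrates, 4 were lower and 0 were higher in VHL-restored cells, against 31.9% and 32.6% of all genes tested. The same edgeR test gave a median log2 fold change of -1.68, and 0 were higher with DESeq2 and limma-voom too. RRM2, CDC6 and EXO1 fell most, with log2 fold changes of -2.64, -2.13 and -1.68. These are mRNA values, and degradation of the proteins was not measured here.

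CCNG2 encodes cyclin G2, a known target of FOXO transcription factors. The gene lies on chromosome 4 from 78078360 to 78354542 on the plus strand, and no exon of another gene overlaps it in the annotation used. Its level was 18.8 and 21.5 CPM in control cells and 41.4 and 37.6 CPM in VHL-restored cells. It was the cyclin that rose among the 9 that had counts in every library. The log2 fold change was 0.95 (standard error 0.111, edgeR FDR = 2.03e-08), or 1.93 times higher in VHL-restored cells. Leaving out single libraries kept it between 0.85 and 1.04, and 88.7% of all genes tested had a change as low or lower.

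**Figure D4:**
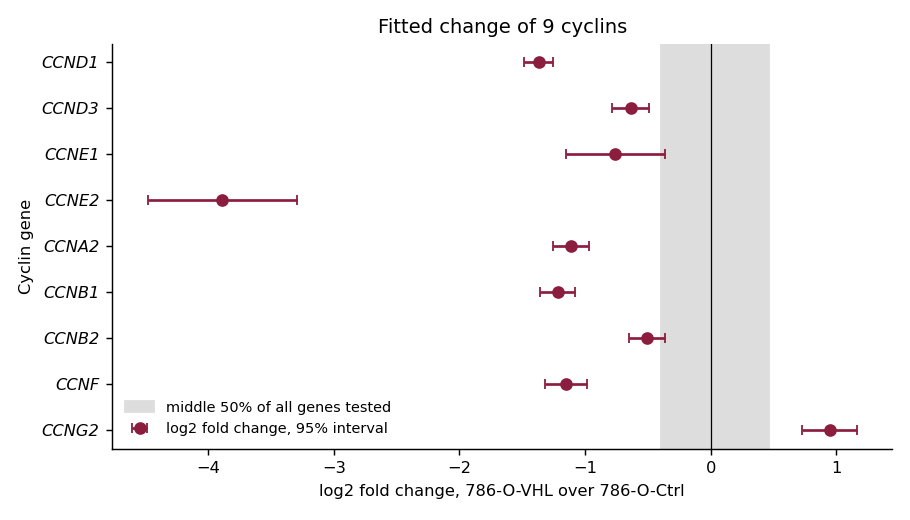
Fitted log2 fold changes of 9 cyclins, 786-O-VHL over 786-O-Ctrl, with 95% intervals from the standard error, where the gray band spans the middle 50% of all genes tested (-0.40 to 0.46). CCND2, which had no count in 786-O-Ctrl, is left out, CCNE2 lies farthest to the left and CCNG2 is the point to the right of 0.

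The order of the levels per length was alike at the top in both sublines. In 786-O-Ctrl, CCND1 led with 1008 ± 18.5 TPM (SD, n = 2), followed by CCNB1 with 235.1 ± 0.772, CCNA2 with 215.8 ± 9.02, CCNB2 with 127.5 ± 0.616, CCND3 with 55.5 ± 1.38 and CCNF with 44.6 ± 1.15 TPM. CCNE1 with 15.4 ± 0.279, CCNE2 with 11.8 ± 0.981 and CCNG2 with 10.9 ± 1.08 TPM were lower, and the libraries of CCNE2 and CCNG2 overlapped. In 786-O-VHL, CCND1 led with 449.3 ± 1.25 TPM, and CCNB1 with 113.1 ± 9.63 and CCNA2 with 112.6 ± 7.56 TPM could no longer be ordered, since their libraries overlapped. CCNG2 moved from rank 9 to rank 6, with 24.6 ± 1.71 TPM against 23.6 ± 1.38 TPM for CCNF, whose libraries also overlapped with it. The share of CCND1 in the summed level of the 10 genes was 58.5% ± 0.741 in control cells and 51% ± 0.65 in VHL-restored cells (SD, n = 2 each). These values are on the TPM scale of each library, without the TMM factors.

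Among 16 other cyclin genes, many of which act in transcription, 7 were higher and 6 were lower in VHL-restored cells. By the same test 32.6% of all genes tested were higher and 31.9% lower. The median log2 fold change of the 16 was 0.08. CCNJL, CCNT2 and CCNH rose most, with log2 fold changes of 1.00, 0.65 and 0.60. CCNT2 and CCNH are cyclins of the kinases that phosphorylate RNA polymerase II. CCNA1, CCNG1 and CCNK fell most, with log2 fold changes of -1.55, -0.93 and -0.78. CCNG1, the closest relative of CCNG2, was at 125.6 and 135.8 CPM in control cells and at 69.9 and 68.2 CPM in VHL-restored cells, and so moved the opposite way from CCNG2.

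The kinases that the cyclins activate moved unequally. CDK2, the partner of cyclins E and A, fell by 1.62 on the log2 scale (standard error 0.106, edgeR FDR = 1.52e-13), and CDK1, the partner of cyclins A and B, fell by 0.89 (standard error 0.0723, edgeR FDR = 1.44e-11). For the partners of the D-type cyclins the test was not passed. CDK4 had a log2 fold change of 0.12 with a 95% interval of -0.01 to 0.25 (edgeR FDR = 0.104), and CDK6 one of -0.10 with an interval of -0.22 to 0.02 (edgeR FDR = 0.154). When library totals were the only scaling, or VHL-restored replicate 1 was left out, 1 of these 4 kinases was called higher. Without replicate 2, 3 kinases were called lower in place of 2. Among 5 CDK inhibitor genes, 3 were higher and 1 was lower, against 32.6% and 31.9% of all genes tested. CDKN1C, CDKN1A and CDKN1B rose, with log2 fold changes of 2.05, 0.61 and 0.31, and CDKN2C, which binds CDK4 and CDK6, fell with a log2 fold change of -1.13.

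**Figure D5:**
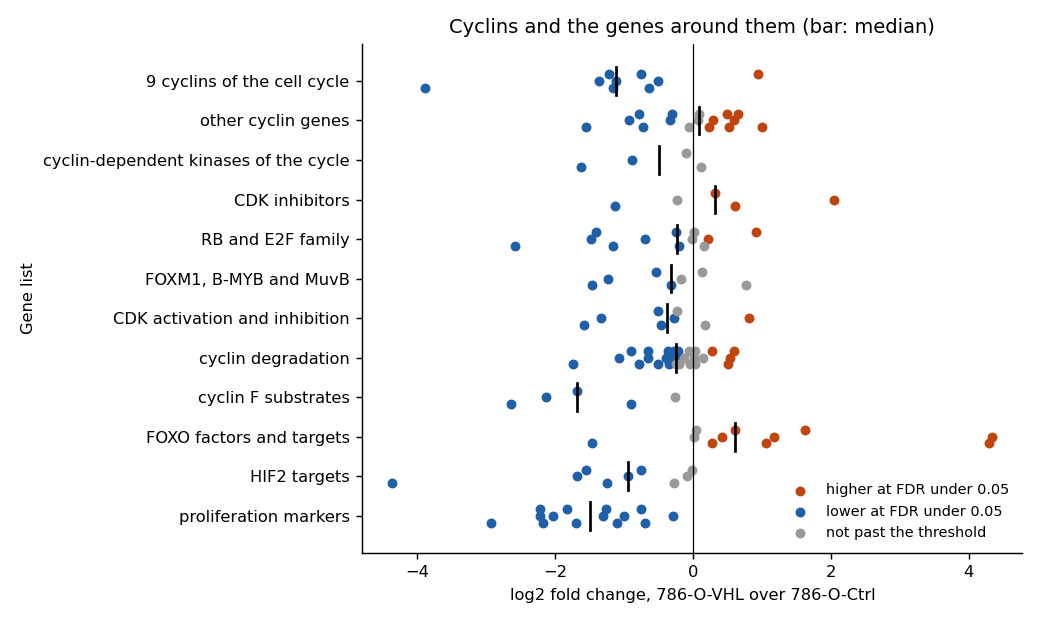
Fitted log2 fold change of every tested gene (points), 786-O-VHL over 786-O-Ctrl, in 9 cyclins and 11 lists of partners, regulators and targets, with the median of each list as a bar. The medians lie lowest for the cyclin F substrates and the proliferation markers, and to the right of 0 for the FOXO list, the CDK inhibitors and the other cyclin genes.

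Of 12 RB and E2F family genes, 7 were lower and 2 were higher. Beside this and the lists that follow, 31.9% of all genes tested were lower and 32.6% higher, 64.5% in either direction. E2F1, which drives genes of the G1 to S transition including those of the E-type cyclins, fell from 112.7 and 107.9 CPM to 17.6 and 18.5 CPM, a log2 fold change of -2.59. E2F8 and RBL1 followed with -1.49 and -1.41, and E2F5 and TFDP2 rose by 0.92 and 0.21. Of 7 genes of FOXM1, B-MYB and MuvB, which act on the promoters of mitotic cyclins, 4 were lower, led by MYBL2 and FOXM1 with log2 fold changes of -1.47 and -1.24. Of 8 genes that switch CDKs on or off, 5 were lower, with CDC25A and PKMYT1 at -1.57 and -1.34, and CDC25B was higher at 0.81. Of 27 genes that act in the degradation of cyclins, 14 were lower and 4 were higher, with a median log2 fold change of -0.25. Only the share called in either direction was near that of all genes, since more of the list was lower and less of it higher. SKP2 fell most, at -1.74. ANAPC13, FBXO31 and ANAPC16 rose most, at 0.60, 0.53 and 0.50, of which FBXO31 is a receptor for cyclin D1 and the others are subunits of the anaphase-promoting complex.

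The lists that hold known fellow targets of CCND1 and CCNG2 went separate ways. Of 9 HIF2 targets other than CCND1, 6 were lower in VHL-restored cells, against 31.9% of all genes tested. Their median log2 fold change was -0.94. EGLN3, SLC2A1 and TGFA fell most, at -4.36, -1.68 and -1.55, and CCND1, at -1.37, lay between TGFA and ADM, the latter at -1.25. Of 11 FOXO factors and targets other than CCNG2, 8 were higher and 1, IRS2, was lower, against 32.6% and 31.9% of all genes tested. TXNIP and GADD45A rose by 4.35 and 1.62 on the log2 scale. INSR, with 2 and 5 counts in the control libraries and 14 and 64 in the VHL-restored libraries, entered the test only through the latter, and 7 genes were higher where 10 counts were required of each library, which leaves INSR out. All 14 proliferation markers were lower, with a median of -1.50, and their summed level went from 3673 and 3566 CPM in control cells to 1468 and 1562 CPM in VHL-restored cells. The cyclins of S, G2 and mitosis thus fell beside the markers of cycling cells, and the part of a changed share of cycling cells in their values was not tested.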

How the data were processed

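TruSeq libraries of total RNA were sequenced, 2 per subline, and grouped by sample title. Raw counts for 12912 genes, from reads mapped to hg19, were deposited by the authors. CASAVA and STAR are named in the submitters' processing notes. The sources used here do not give the counter, its strand setting or its gene models. Both 786-O-Ctrl columns carry the same replicate number and are told apart by depth. The test was that of edgeR 4.0.16 (R 4.3.3). filterByExpr at a minimum count of 10 left 12335 genes and removed 577. TMM scaling, the quasi-likelihood F test on the group alone and Benjamini-Hochberg adjustment followed, and standard errors are those implied by F. The common dispersion was 0.00186. TPM used exon lengths of GENCODE v44 mapped to GRCh37, found for 12749 genes. Promoters came from RefSeq. Alternatives were DESeq2 1.42.0, limma-voom (limma 3.58.1), RLE factors, library totals, other filters, thinning, a prior count of 2 and each library left out. The fit was also run on simulated counts, with the same dispersion for every gene and far fewer changed genes than were called here. The cyclins, gene lists and tests were chosen with earlier results of these data known. All 10 cyclins are named, and of each list up to 3 genes per direction with the largest change past an FDR of 0.05, with all 4 kinases. ADM was named after its value was seen.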

Additional observations from a re-analysis of the deposited data

How the results depend on the processing

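No paired analysis was possible because both 786-O-Ctrl columns of the count table carry the same replicate number. No cyclin changed direction under any alternative that gave it a value. CCND1, CCND3, CCNA2, CCNB1, CCNB2, CCNF and CCNG2 passed an FDR of 0.05 in all 12 alternatives and CCNE2 in all 11 that tested it. CCNE1 lost its call with DESeq2 (log2 fold change -0.73), after thinning to equal depth (-0.51) and without 786-O-VHL replicate 2, and ranged from -0.84 to -0.48 with each library left out. CCND2 was tested in 8 of 12 alternatives, so 1 cyclin in place of 2 was called higher under a minimum of 10 counts per library and after thinning, and between 1 and 2 with a library left out. Its fitted log2 fold change was 2.74 with a prior count of 2 against 6.53, and is no bound. Between 7 and 8 cyclins were called lower in each alternative that kept the FDR of 0.05 alone. With the added 4-fold threshold at an FDR under 0.01, 1 cyclin was higher (CCND2) and 1 lower (CCNE2), and 360 genes of the whole table were higher and 190 lower, against 4017 and 3939. Under that threshold, 1 CDK inhibitor and 2 FOXO genes were higher, and 1 RB or E2F gene, 2 cyclin F substrates, 1 HIF2 target and 5 proliferation markers were lower, with 0 calls in the remaining directions and lists. Scaling by library totals alone moved the median log2 fold change of all genes from 0.02 to 0.15 and the calls to 5077 higher and 3097 lower, with 1 kinase and 2 genes that switch CDKs called higher. In the RB and E2F list, 1 gene was higher with DESeq2 and after thinning, and between 1 and 2 with a library left out. With a library left out, between 0 and 1 kinase was higher, between 2 and 3 kinases were lower (3 without 786-O-VHL replicate 2) and between 1 and 2 CDK inhibitors were lower. By counts alone, without exon length, the share of CCND1 in the 10 genes was 67.7% for control and 59.3% for VHL-restored libraries. The depth of 786-O-VHL replicate 1 limits CCND2, CCNE1 and CCNE2, which had 3, 20 and 6 counts there.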
